A study of Mus musculus with 16 samples.

Results

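Oxidative phosphorylation genes encode the 4 respiratory complexes and the ATP synthase of the mitochondrial inner membrane, and their RNA levels were followed in cultured mouse macrophages with and without Smad7 and TGF-β1. The genes were taken from the deposited tables by name and type: protein-coding genes whose symbol begins with Nduf, Sdha to Sdhd, Uqcr, Cox4 to Cox8, Atp5, mt-Nd, mt-Co, mt-Cytb or mt-Atp. They came to 107 of 35275 genes, of which 94 lie in the nuclear genome and 13 on the mitochondrial chromosome. RNA came from 16 libraries, in 4 groups of 4. The cells were macrophages that had been grown from C57BL/6 tibial marrow with colony-stimulating factor 1. The control genotype was Smad7 fl/fl, and the other, called KO here, was Smad7 fl/fl + CAGGCre-ER. CAGG is a broadly active promoter, so the tamoxifen-inducible Cre was not restricted to macrophages. All mice, the controls included, received tamoxifen at 20 mg/kg for 5 days at 1 month of age, and marrow was taken 2 weeks later. After starvation without serum, the macrophages of each genotype were left untreated or kept for 4 hours with 10 ng/ml of TGF-β1. The comparisons ask whether TGF-β1 changed these genes in each genotype, whether the genotypes differed, and whether the 2 TGF-β1 responses differed. The labels do not say which libraries came from separate animals, so p-values measure the spread between these samples.

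Complex I (NADH dehydrogenase) and complex II (succinate dehydrogenase) pass electrons to ubiquinone, complex III (cytochrome bc1) passes them to cytochrome c, and complex IV (cytochrome c oxidase) passes them to oxygen. The proton gradient that complexes I, III and IV build drives complex V, the ATP synthase. Each complex other than II joins nuclear subunits with a few that are made inside the mitochondrion from its own chromosome, which is transcribed as long precursors that are cut into single RNAs. Macrophages are known to shift between oxidative phosphorylation and glycolysis as they are activated. Smad7 is an inhibitor of TGF-β receptor signalling that TGF-β itself induces.

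The nuclear set held 44 genes of complex I (36 subunits and 8 assembly factors), 6 of complex II (4 subunits and 2 assembly factors), 8 of complex III, 20 of complex IV (Cox7a2l, a supercomplex factor, among them) and 16 of complex V (Atp5s among them). Atp5sl was placed with the assembly factors of complex I, since its product is also known as Dmac2, a factor for the membrane arm of that complex. The mitochondrial set held 7 subunits of complex I, 1 of complex III, 3 of complex IV and 2 of complex V. Of the 94 nuclear genes 88 passed the filter on low counts, and of the 13 mitochondrial genes 12 did.

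Library totals ran from 16865591 to 23741079 counts. Levels are given below as CPM, counts divided by the library total after TMM scaling, when one gene is compared between libraries, and as the authors' FPKM, which is also divided by gene length, when genes are compared with each other. The summed CPM of 8 macrophage markers was 17010 to 25180 in every library, against at most 15.96 for 8 neutrophil markers, 11.2 for 4 osteoclast markers, 5.47 for 4 dendritic cell markers and 3.90 for 4 B cell markers. It was at most 1.62 for 6 stromal and osteoblast markers, 0.540 for 4 erythroid, 0.387 for 3 mast cell and basophil and 0.121 for 4 T and NK cell markers. Ly6g, Cd3e, Cd3g, Ncr1 and Mcpt8 had no count in any library. The library labelled KO untreated replicate 1 went against its label: Pmepa1, a TGF-β target, was at 319.9 CPM there, against 1.70 to 2.73 CPM in the other 3 libraries of its group and 292.2 to 343.3 CPM in KO TGF-β1. Smad7, the deleted gene, was at 5.87 CPM in that library against 1.28 to 2.00 CPM in the other 3, with 3.89 to 6.03 CPM in fl/fl untreated, 37.3 to 58.3 CPM in fl/fl TGF-β1 and 10.3 to 19.7 CPM in KO TGF-β1. The counts cover the whole gene, so they do not measure the deleted stretch itself. The results are therefore given with and without that library. In these bulk samples, fewer cells and less RNA per cell cannot be told apart.

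Levels of the mitochondrial set have to be read with its sequences in view, because chromosome 1 of mm10 carries annotated copies of 7 of its genes in a single block. The copies are listed in the deposited table as genes of their own between 24611535 and 24616197 on the minus strand. Aligned to GENCODE M21 transcripts, the copies of mt-Co2, mt-Atp6, mt-Co3 and mt-Nd4l matched their mitochondrial genes at 100% over 99.56%, 99.56%, 99.87% and 98.99% of the gene. The copy of mt-Nd3 had 1 mismatch, T3C, in 345 aligned bases. The copy of mt-Nd4 matched 876 bases without a mismatch, 63.6% of that gene, and the copy of mt-Co1 matched 31.3% of its gene with 1 mismatch, A1066T. The first 60 aligned bases of 3 pairs show how little a read has to tell them apart; positions count from 1 at the first base of the mitochondrial gene, its base is given first, and capitals mark the mismatch.
mt-Co1 (chrM:6390-6449, plus strand): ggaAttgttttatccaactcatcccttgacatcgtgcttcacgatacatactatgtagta
RP23-8J15.1 (chr1:24616129-24616188, minus strand): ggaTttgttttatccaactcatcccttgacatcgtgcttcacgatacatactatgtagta
mt-Co2 (chrM:7013-7072, plus strand): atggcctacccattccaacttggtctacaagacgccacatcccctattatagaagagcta
RP23-8J15.2 (chr1:24615506-24615565, minus strand): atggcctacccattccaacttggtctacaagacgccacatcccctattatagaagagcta
mt-Nd3 (chrM:9459-9518, plus strand): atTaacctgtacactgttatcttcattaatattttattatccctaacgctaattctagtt
RP23-8J15.5 (chr1:24613060-24613119, minus strand): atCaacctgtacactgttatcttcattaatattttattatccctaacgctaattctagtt
Over mt-Co1 the longest identical run was 479 bases and over mt-Nd3 it was 342 bases, both longer than a 150-base read.

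Along the mitochondrial chromosome the levels fell into 2 tiers. The 5 genes outside the copied stretch, and the 2 with a copy of only part of the gene (mt-Co1 and mt-Nd4), were the 7 highest of all 107 genes: mt-Co1 (5547 ± 1276 FPKM, SD, n = 16), mt-Cytb (2383 ± 769 FPKM), mt-Nd1 (1741 ± 648 FPKM), mt-Nd5 (1279 ± 317 FPKM), mt-Nd4 (909 ± 309 FPKM), mt-Nd6 (832 ± 217 FPKM) and mt-Nd2 (766 ± 270 FPKM). The other mitochondrial genes were at 24.0 ± 13.3 FPKM for mt-Co2, 14.8 ± 7.44 FPKM for mt-Co3, 13.7 ± 6.23 FPKM for mt-Atp6, 4.83 ± 1.72 FPKM for mt-Nd4l and 2.21 ± 1.33 FPKM for mt-Nd3. mt-Co1 and mt-Co2 encode subunits of the same enzyme, and they were at 52840 to 223413 and 86 to 877 counts per library. The mean counts of a low gene and its copy were near each other in 3 pairs: 321.8 for mt-Co2 and 371.9 for its copy, 227.3 and 222.1 for mt-Co3, and 28.25 and 31.69 for mt-Nd4l. The copy had the higher count in the other two, at 378 beside 182.7 for mt-Atp6 and 155.3 beside 14.88 for mt-Nd3. mt-Atp8, which has no annotated copy of its own but lies in the same stretch and overlaps mt-Atp6, had 3 counts in all libraries together. The counting options for reads that map to more than 1 place are not given in the sources used here, and their part in these low values was not tested. Values of the 6 low genes are therefore uncertain as levels. Reads in the copied parts of mt-Nd4 (63.6% of the gene) and mt-Co1 (31.3%) are uncertain in the same way. mt-Nd5 and mt-Nd6 overlap on opposite strands and the library kit named in the labels does not mark strand, so their shared bases cannot be assigned.

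**Figure D1:**
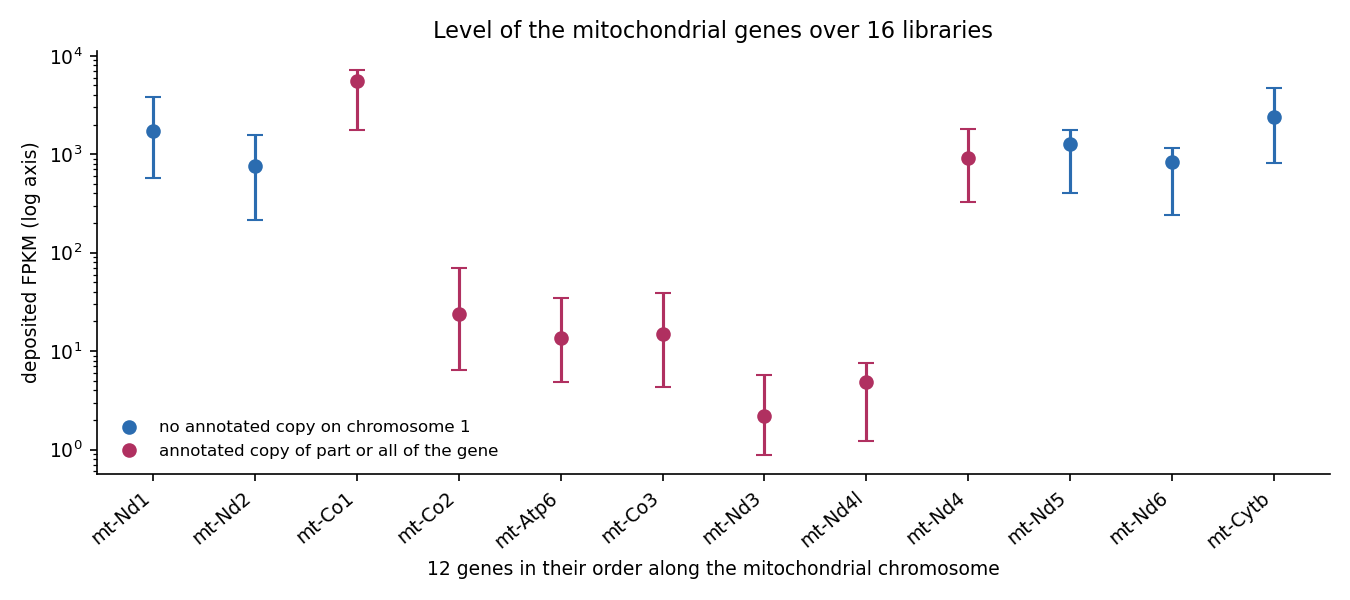
Deposited FPKM (log axis) of 12 mitochondrial genes in chromosome order, mean over 16 libraries with bars from the lowest to the highest library; mt-Atp8, at 3 counts in all, is left out. mt-Co2 to mt-Nd4l, between 2.21 and 24.0 FPKM, lie far below the genes on either side, which are between 766 and 5547 FPKM.

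The nuclear genes spanned 0 to 256.5 FPKM, with a median of 33.6. Complex V had the highest median, 69.9 FPKM, followed by complex III at 49.3, complex II at 40.7, complex IV at 38.2 and complex I at 22.2. Atp5b, the catalytic β subunit of ATP synthase, and Cox4i1, a core nuclear subunit of cytochrome oxidase, were level at 256.5 ± 17.8 and 256.2 ± 62.6 FPKM (SD, n = 16), a difference within their spread. The highest gene of complex II was Sdha, the flavoprotein of succinate dehydrogenase (108.6 ± 9.21 FPKM), and that of complex III was Uqcrc1, a core protein (96.3 ± 7.52 FPKM). Ndufb2, at 0.743 FPKM, was the lowest complex I gene, and it overlaps 3 other annotated genes, 2 of them on the opposite strand. In all, 24 nuclear genes overlap another gene, and reads in shared bases are uncertain.

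Where complex IV has paired isoforms, the ubiquitous form was several times higher than the tissue-restricted one, which in some pairs had few counts or none. Cox4i1 stood beside 0.312 FPKM for Cox4i2, the lung and hypoxia form, and Cox6a1 (250.4 ± 61.5 FPKM) beside 0.442 FPKM for Cox6a2, the heart and muscle form. Cox6b1 was at 143.8 ± 45.5 FPKM and Cox6b2, known from testis, at 1.68 ± 1.07 FPKM. Cox7a2 was at 37.4 ± 12.4 FPKM, its muscle form Cox7a1 at 4.80 ± 2.00 FPKM, and the related Cox7a2l, which joins complexes III and IV, at 107.9 ± 16.6 FPKM. Cox8a was at 182.1 ± 52.2 FPKM, Cox8b at 0.105 FPKM with 13 counts in all, and Cox8c had no count. Cox7b was at 39.0 ± 9.07 FPKM, and Cox7b2 had no count in any library. A count of 0 allows up to 3 counts per library, or 0.126 to 0.178 CPM over the depths here, a limit that covers counting error only. Ndufa4, once assigned to complex I and now to complex IV, was at 111.7 ± 22.8 FPKM, while Ndufa4l2, its hypoxia-induced relative, had 1 count. Cox5a and Cox5b are not alternatives but both part of the enzyme, and were at 41.2 ± 6.14 and 119.9 ± 36.8 FPKM.

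The genes were also described by the letters of their promoters, since nuclear respiratory factor 1 (NRF-1) and the ETS factor GABP are known activators of respiratory genes. RefSeq promoter windows (GRCm38.p6, 250 bases before to 50 after a start) were matched for 78 of the 94 nuclear genes. The NRF-1 letters, GCGCA, any base and then GCGC, on either strand, were in at least 1 window of 19 of these 78 genes, 24.4%, against 7.17% of 17492 protein-coding genes and 5.19% of all 27025 genes with a window. The ETS letters CCGGAAG were also found in 19 genes, 24.4%, against 12.95% of protein-coding and 9.93% of all genes. The palindromic Smad letters GTCTAGAC were in 0 of the 78, against 0.263% of protein-coding genes. None of the 3 motifs contains another, though end bases of an NRF-1 and an ETS match can be shared, and a match is a description only. Shown here are the 250 bases before the start of Ndufaf4, a complex I assembly factor with an NRF-1 match (in capitals), and of Atp5sl, which moved with TGF-β1 below and whose window has neither activator motif.
Ndufaf4 (chr4:24897833-24898082, plus strand): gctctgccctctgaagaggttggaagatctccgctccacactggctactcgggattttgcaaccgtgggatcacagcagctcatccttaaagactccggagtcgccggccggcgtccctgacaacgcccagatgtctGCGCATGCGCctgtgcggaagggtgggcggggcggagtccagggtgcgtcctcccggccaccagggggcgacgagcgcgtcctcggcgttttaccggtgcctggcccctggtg
Atp5sl (chr7:25619164-25619413, plus strand): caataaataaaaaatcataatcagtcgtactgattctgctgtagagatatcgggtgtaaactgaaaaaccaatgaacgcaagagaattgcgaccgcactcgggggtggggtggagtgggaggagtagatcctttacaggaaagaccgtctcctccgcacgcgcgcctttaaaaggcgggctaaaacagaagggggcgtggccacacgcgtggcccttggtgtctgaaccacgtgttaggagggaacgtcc

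Summed over each set, the ranges of the groups were wide and shared values. The 13 mitochondrial genes summed to 22710, 18240, 18700 and 19070 CPM in fl/fl untreated replicates 1 to 4 and to 19330, 16410, 16070 and 5821 CPM in fl/fl TGF-β1. In KO untreated the sums were 17560, 25780, 16990 and 18040 CPM, and in KO TGF-β1 they were 11030, 18650, 20700 and 20180 CPM. fl/fl TGF-β1 replicate 4 and KO TGF-β1 replicate 1 were the lowest and KO untreated replicate 2 the highest. The 94 nuclear genes summed to 4984 ± 494 CPM in fl/fl untreated, 5324 ± 667 in fl/fl TGF-β1, 5688 ± 930 in KO untreated and 5482 ± 323 in KO TGF-β1 (SD, n = 4 each). Without the library labelled KO untreated replicate 1 that group was at 5879 ± 1039 CPM for the nuclear sum (SD, n = 3). Its mitochondrial sum was then 20270 ± 4801 CPM. The highest nuclear sum, 7066 CPM, was again in KO untreated replicate 2, while fl/fl TGF-β1 replicate 4, lowest for the mitochondrial sum, was second highest for the nuclear sum at 6219 CPM. The ratio of mitochondrial to nuclear sums was 0.936 in fl/fl TGF-β1 replicate 4 and 1.87 in KO TGF-β1 replicate 1, against 3.03 to 5.01 in the other 14 libraries. Against the other 3 libraries of its group, KO TGF-β1 replicate 1 had a median log2 difference of -0.81 for the 7 high mitochondrial genes and 0.47 for the 5 tested low ones in the copied stretch. In fl/fl TGF-β1 replicate 4 both were low, at -1.61 and -1.56, and in KO untreated replicate 2 both were high, at 0.97 and 1.55.

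**Figure D2:**
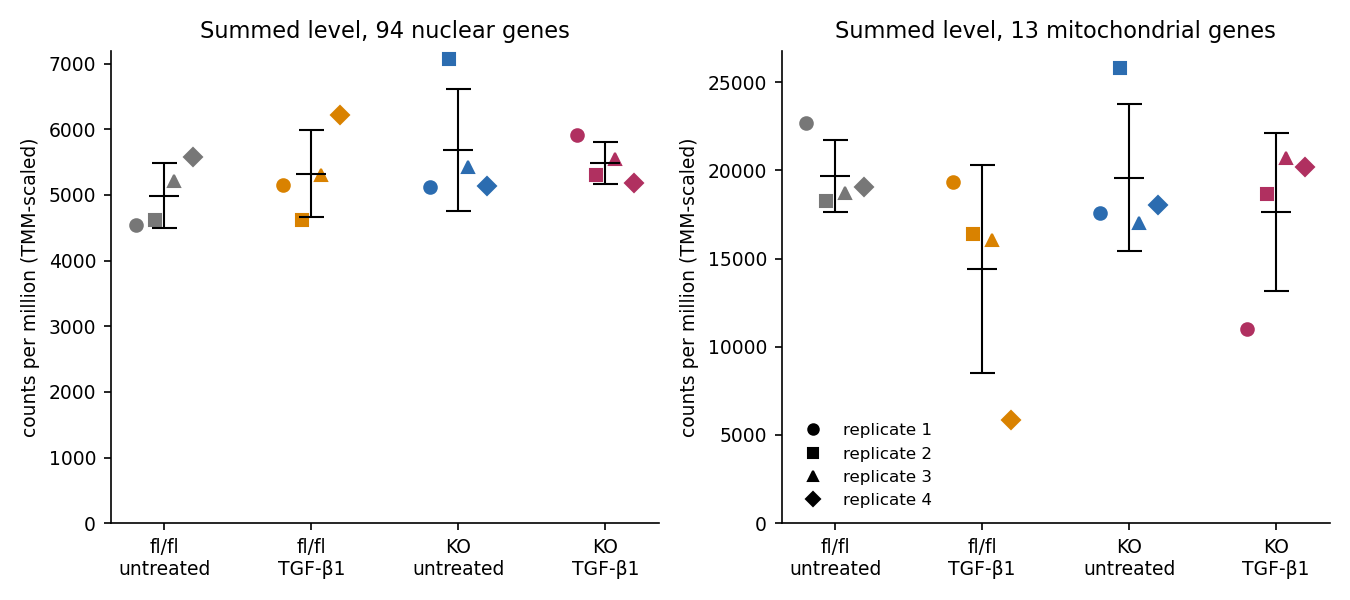
Summed CPM (TMM-scaled) of the 94 nuclear and 13 mitochondrial genes by library, with shapes for replicates and black bars for the mean ± SD of 4 libraries. Single libraries, at 7066 CPM (nuclear) and at 25780 and 5821 CPM (mitochondrial), stand away from the rest of their groups.

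The nuclear genes are short, and their level in a library moved with that of other short genes. Their median length was 1056 bases against 2997 for all 13080 genes tested, and 42 of 88 were under 1000 bases. In KO untreated replicate 2, 80 of the 88 were above the mean of the other 3 libraries of the group and 11 were more than 2-fold above it. The median difference of the 42 short members from the other 3 libraries was 0.75 on the log2 scale, beside 0.50 for 1060 genes under 1000 bases that are no member and -0.17 for 4080 over 4000 bases. The 3 members over 4000 bases were also high there, with a median of 0.75. KO TGF-β1 replicate 1 had 0.41 and 0.43 for short members and other short genes, and fl/fl TGF-β1 replicate 4 had 0.34 and 0.22. The part of this length trend in the comparisons below was not tested. Medians with the trend removed, and with these 3 libraries and the library labelled KO untreated replicate 1 left out (the 4 doubtful libraries), are given with each comparison. Leaving out the 4 keeps only replicates 3 and 4 of KO untreated, replicates 2 to 4 of KO TGF-β1 and replicates 1 to 3 of fl/fl TGF-β1.

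**Figure D3:**
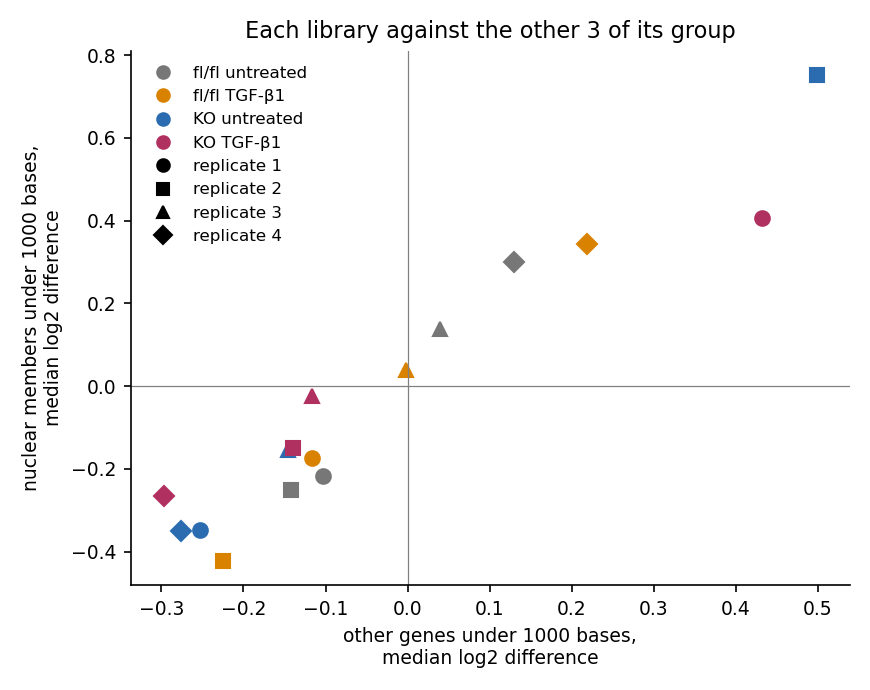
Each point is a library, placed by the median log2 difference from the other 3 libraries of its group, for 1060 other genes under 1000 bases (horizontal) and 42 nuclear members under 1000 bases (vertical). KO untreated replicate 2, at 0.50 and 0.75, lies at the upper end.

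In fl/fl macrophages 2 of the 88 tested nuclear genes rose with TGF-β1 and none fell. Of all genes tested, 15.5% passed the same test (edgeR quasi-likelihood, Benjamini-Hochberg adjusted p under 0.05), 7.87% upward and 7.61% downward, and 27.4% had an unadjusted p under 0.05, as the same 2 nuclear genes did. The share of members is thus below the background. Without the library labelled KO untreated replicate 1, 2 were again called, beside 17.7% of all genes. Sdhb, the iron-sulfur subunit of succinate dehydrogenase (ENSMUSG00000009863, chromosome 4, 140961203 to 140979193), was at 89.7, 82.8, 92.3 and 93.7 CPM in untreated replicates 1 to 4 and at 113.3, 101.2, 106.3 and 144.5 CPM with TGF-β1. Every treated library was above every untreated one, and replicate 4 was the highest. The log2 fold change was 0.38 ± 0.11 (SE), with an edgeR adjusted p of 0.0258. Atp5sl (ENSMUSG00000057229, chromosome 7, 25619414 to 25625551) was at 27.5, 23.5, 26.1 and 25.4 CPM untreated and at 31.4, 32.2, 35.9 and 32.3 CPM with TGF-β1. Its groups did not overlap either, and the log2 fold change was 0.36 ± 0.11 (SE), with an edgeR adjusted p of 0.0285. These were also the only nuclear members without overlap between the groups, 2 of 88 beside 11.4% of all genes upward and 12.5% downward. With the replicate numbers as blocks within each genotype, the same number of nuclear genes was called, beside 16.8% of all genes. With the length trend also removed Cox5b was called as well, at 0.36 with an edgeR adjusted p of 0.0299. The share of all genes called in that further fit is not given here.

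In KO macrophages neither gene was called. Sdhb was at 107.8, 114.9, 98.9 and 97.4 CPM in KO untreated and at 116.8, 101.5, 117.3 and 106.4 CPM in KO TGF-β1, and the groups overlapped. Atp5sl was at 35.2, 30.0, 30.7 and 26.7 CPM and at 36.4, 30.0, 35.1 and 29.4 CPM, also overlapping. The log2 fold changes in KO were 0.08 ± 0.11 (edgeR adjusted p = 0.835) and 0.09 ± 0.11 (adjusted p = 0.775), or 0.12 and 0.20 without the library labelled KO untreated replicate 1. The difference between the genotypes' responses was itself not called for either gene, at -0.30 ± 0.15 for Sdhb and -0.27 ± 0.15 for Atp5sl (edgeR adjusted p = 0.993 for both). Both fl/fl calls also depended on single libraries. Without fl/fl TGF-β1 replicate 4 the change of Sdhb was 0.28 with an edgeR adjusted p of 0.0535, and without fl/fl untreated replicate 2 neither gene was called (adjusted p = 0.0848 for Sdhb and 0.108 for Atp5sl). Atp5sl was also not called without fl/fl untreated replicate 3 or 4 or without fl/fl TGF-β1 replicate 3 (edgeR adjusted p = 0.0686, 0.0776 and 0.0707). With the length trend removed, 1 nuclear gene of complex I and 1 of complex II were called for TGF-β1 in fl/fl. The same counts were found with the 4 doubtful libraries left out, beside 24.3% of all genes. The share of all genes called with the length trend removed is not given here.

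**Figure D4:**
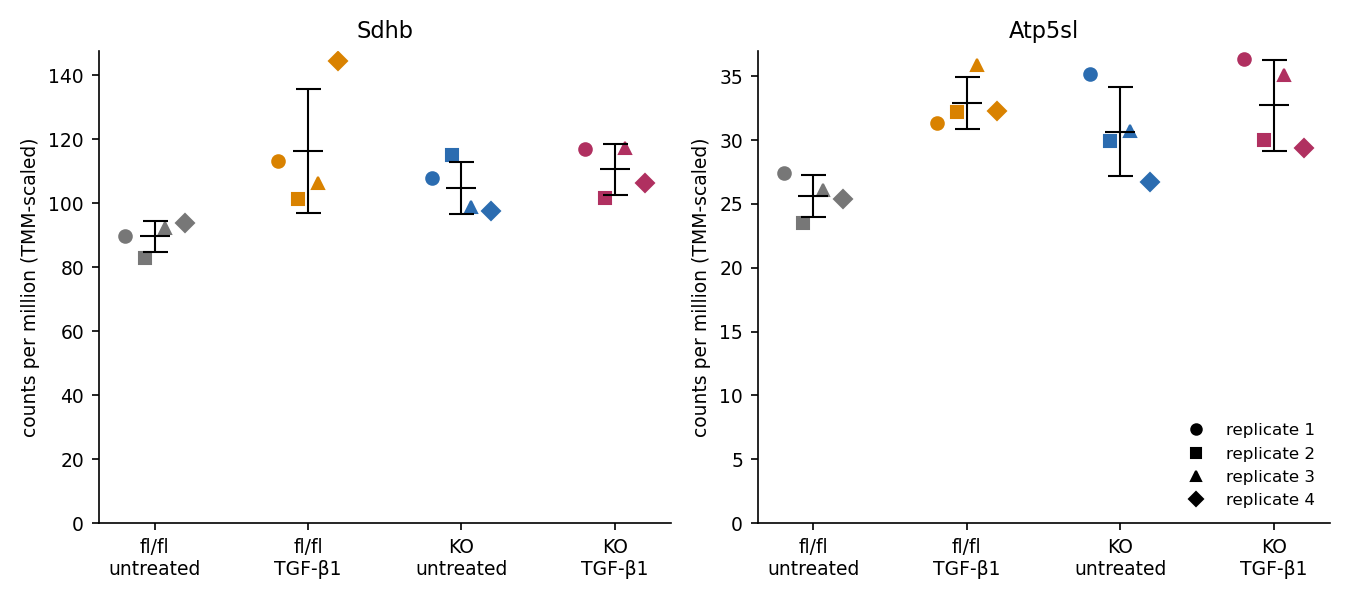
CPM (TMM-scaled) of Sdhb and Atp5sl by library, with shapes for replicates and black bars for the mean ± SD of 4 libraries. In fl/fl the treated libraries, from 101.2 CPM for Sdhb and 31.4 CPM for Atp5sl, lie above the untreated ones, which reach 93.7 and 27.5 CPM; in KO they overlap.

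Over all 88 nuclear genes the median log2 fold change with TGF-β1 in fl/fl was 0.10, beside -0.01 for all genes, and 66 of them, 75%, were positive beside 48.3%. By complex the medians were 0.07 for complex I, 0.06 for II, 0.10 for III, 0.12 for IV and 0.05 for V. Without fl/fl TGF-β1 replicate 4 the median was 0.02, with the length trend removed it was 0.06, and with the 4 doubtful libraries left out it was 0.002. The largest changes were in low genes such as Cox6b2, at 0.77 ± 0.56 (SE) with an edgeR adjusted p of 0.411, and Cox7a1, at 0.62 ± 0.38 with an adjusted p of 0.318. The most abundant genes of complexes II to V were near 0: Atp5b at 0.09 ± 0.09, Cox4i1 at 0.11 ± 0.18, Sdha at 0.04 ± 0.11 and Uqcrc1 at 0.10 ± 0.09, none of them called (edgeR adjusted p from 0.566 to 0.848).

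No mitochondrial gene was called by edgeR for TGF-β1 in fl/fl, none of 12 had an unadjusted p under 0.05 (2 with the replicate block within genotype, beside 29.6% of all genes), and DESeq2 called none. Every one of the 12 estimates was negative, with a median of -0.42, but 1 library carried most of it. This median, like each mitochondrial median below, pools the 7 high genes with the 5 tested low ones, whose levels are uncertain. mt-Co1, which encodes the catalytic subunit of cytochrome oxidase, was at 11190, 8991, 9127 and 9276 CPM untreated and at 9283, 8140, 7806 and 2754 CPM with TGF-β1. Treated replicate 1 lay within the untreated range, replicates 2 and 3 lay below it, and replicate 4 stood far below the rest. mt-Cytb, the cytochrome b of complex III, was at 3096, 2632, 2739 and 2873 CPM and at 2789, 2433, 2420 and 937 CPM, in the same arrangement. Without fl/fl TGF-β1 replicate 4 the median over the 12 genes was -0.14, with the 4 doubtful libraries left out it was -0.16, and with the length trend removed it was -0.41.

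TGF-β1 in KO macrophages gave no called nuclear gene of 88 and no called mitochondrial gene of 12 with edgeR, against 5.17% of all genes. At an unadjusted p under 0.05 there was 1 nuclear gene (17.7% of all genes) and no mitochondrial gene, and DESeq2 called none of either. Without the library labelled KO untreated replicate 1, 14.9% of all genes were called and still none of these, with 2 nuclear genes at an unadjusted p under 0.05 beside 24.6% of all genes. The median log2 change of the nuclear genes was -0.09, with 23 of 88 positive beside 45.1% of all genes, and it was -0.11 without the library labelled KO untreated replicate 1. Leaving out KO untreated replicate 2 instead turned it to 0.09, with 77 of 88 positive, while it was 0.0033 with the length trend removed. The mitochondrial median moved likewise from -0.25 to 0.02, and all 12 were then positive. It was -0.10 with the length trend removed and -0.35 without the library labelled KO untreated replicate 1. Ndufaf7, an assembly factor of complex I named after its values were seen, had the lowest adjusted p, at 7.16, 5.70, 7.13 and 5.99 CPM untreated and 9.09, 8.24, 8.24 and 8.46 CPM treated. Its groups did not overlap, nor did those of Ndufv1, which makes 2 of 88 beside 2.98% of all genes upward (2 of 88 beside 11.5% without the library labelled KO untreated replicate 1), but its log2 change of 0.39 ± 0.16 had an edgeR adjusted p of 0.183. With 4 libraries left out, the 3 that stand apart by length trend and the library labelled KO untreated replicate 1, Atp5s, a factor that couples the parts of ATP synthase, was the sole member called (log2 -1.17 ± 0.31, edgeR adjusted p = 0.0101). That fit kept only replicates 3 and 4 of KO untreated, against replicates 2 to 4 of KO TGF-β1. Groups this small separate more easily than groups of 4. In that fit 20.9% of all genes were called, and 10.2% were called lower. The nuclear median was then 0.012. The mitochondrial median was 0.20, with 10 of 12 positive beside 49.4% of all genes and 3 at an unadjusted p under 0.05 beside 30.4%. Among those libraries 6 of 12 mitochondrial and 11 of 88 nuclear genes were higher with TGF-β1 without overlap, beside 23.5% of all genes, and 3 nuclear genes were lower, beside 26.8%.

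In untreated macrophages KO was above fl/fl for most nuclear genes, but none was called and the size of the shift changed with 1 library. Of 88 tested, 82 had a positive log2 fold change, 93.2% beside 54.1% of all genes, with a median of 0.31 beside 0.03. edgeR called 0 (0.0459% of all genes), 20 had an unadjusted p under 0.05 (10.9% of all genes), and DESeq2 called 0. Those 20 were 10 in complex I, 3 in III, 5 in IV and 2 in V. By complex the medians were 0.32 for I, 0.17 for II, 0.48 for III, 0.32 for IV and 0.28 for V. Without KO untreated replicate 2 the median was 0.13 and 2 genes had an unadjusted p under 0.05. With the length trend removed the median was 0.10 with 7 such genes, and with the 4 doubtful libraries left out it was 0.11 with 3, beside 12.8% of all genes. Shares of all genes are not given for the fits without KO untreated replicate 2 and with the length trend removed. The counts of those fits describe the members alone. Leaving out the library labelled KO untreated replicate 1 moved the median to 0.36 with 32 such genes, beside 11.8% of all genes, and still none was called, beside 0.0975%.

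The same dependence was seen in single genes. Cox5b, a zinc-binding subunit of cytochrome oxidase, was at 38.3, 43.7, 58.7 and 66.0 CPM in fl/fl untreated and at 62.8, 119.2, 69.7 and 65.3 CPM in KO untreated. KO replicate 2 was far above the others, which reached into the fl/fl range, and the log2 fold change was 0.62 ± 0.23 (SE; edgeR adjusted p = 0.414). Cox4i1 was at 170.9, 163.5, 175.3 and 192.5 CPM and at 179.7, 336.0, 199.6 and 179.2 CPM, again with replicate 2 alone far above. Cox7a2l was less dependent on it, at 115.6, 106.9, 101.3 and 113.4 CPM in fl/fl and 112.5, 153.0, 147.9 and 132.7 CPM in KO. Here the library labelled KO untreated replicate 1 was the one within the fl/fl range. The log2 fold change of Cox7a2l was 0.32 ± 0.11 (edgeR adjusted p = 0.414), and it was 0.38 ± 0.11 (adjusted p = 0.287) without that library and 0.35 ± 0.09 (adjusted p = 0.0816) with the 4 doubtful libraries left out. Without KO untreated replicate 2 it was 0.26, and with the length trend removed it was 0.13. Cox5a, at 23.9 to 28.4 CPM in fl/fl and 24.5 to 32.1 CPM in KO, gave 0.14 ± 0.13. The groups did not overlap in 2 of 88 nuclear genes, Sdhb among them, beside 3.94% of all genes upward. Without the library labelled KO untreated replicate 1 there were 8, among them Cox5a, Cox7a2l, Ndufaf4, Ndufb6, Ndufs7, Ndufv2 and Sdhb, beside 7.18% of all genes.

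The mitochondrial genes were mixed in direction, with 9 of 12 positive. Their median in KO against fl/fl, untreated, was 0.19 with none called by edgeR or DESeq2 and none at an unadjusted p under 0.05. mt-Co1 was at -0.10 ± 0.27, mt-Nd5 at -0.18 ± 0.30 and mt-Nd6 at -0.11 ± 0.31, while mt-Co2, among the copied genes, was at 0.68 ± 0.37 (edgeR adjusted p = 0.491). mt-Co2 was at 14.6, 45.1, 13.99 and 16.1 CPM in KO, beside 16.5, 12.7, 12.4 and 14.3 CPM in fl/fl, so that KO replicate 2 alone was high. Without that library the mitochondrial median was -0.16, with 3 of 12 positive. It was -0.06 with the length trend removed and -0.16 with the 4 doubtful libraries left out, again with 3 of 12 positive in each fit. Leaving out the library labelled KO untreated replicate 1 gave 0.24, with 9 of 12 positive.

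With TGF-β1 in both genotypes, KO and fl/fl differed in no member by edgeR or DESeq2 (0.0382% of all genes were called by edgeR). The nuclear median was 0.11 beside 0.01 for all genes, with 68 of 88 positive beside 52.2% of all genes, and 4 had an unadjusted p under 0.05, beside 5.61% of all genes. The nuclear median was 0.03 with the length trend removed and 0.13 with the 4 doubtful libraries left out. In 5 nuclear genes every KO library was above every fl/fl one, beside 2% of all genes upward: Ndufaf4, an assembly factor, Ndufb5, a complex I subunit, Uqcrfs1, the Rieske iron-sulfur protein of complex III, and Atp5c1 and Atp5j of ATP synthase. Uqcrfs1 was at 61.1, 61.8, 64.1 and 68.0 CPM in fl/fl and 80.3, 72.3, 74.6 and 71.9 CPM in KO. The log2 fold change was 0.23 ± 0.11, with an edgeR adjusted p of 0.877. Ndufaf4 was at 5.46, 5.49, 5.29 and 3.39 CPM and 5.81, 6.62, 6.25 and 6.76 CPM, with a log2 fold change of 0.38 ± 0.19 and the same adjusted p. All 5 were named after their values were seen. The 12 mitochondrial genes, 7 high ones and 5 low ones of uncertain level, were all positive here. Their median was 0.33, with none at an unadjusted p under 0.05. mt-Co2, among the low ones, was without overlap between the groups. This comparison shares its low library with the TGF-β1 comparison in fl/fl, and without fl/fl TGF-β1 replicate 4 the median was 0.06, with 9 of 12 positive. It was 0.21 with the length trend removed and 0.20 with the 4 doubtful libraries left out. With those 4 left out, 15 of 88 nuclear and 3 of 12 mitochondrial genes were higher in KO without overlap, beside 6.8% of all genes. Lower without overlap were 1 and 0, beside 6.96%. The unadjusted p was under 0.05 for 2 mitochondrial genes of complex I, 1 of III and 1 of IV, beside 7.36% of all genes. It was so for 4 nuclear genes of complex I, 1 of III, 2 of IV and 1 of V. None was called, and groups of fewer than 4 libraries separate more easily.

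**Figure D5:**
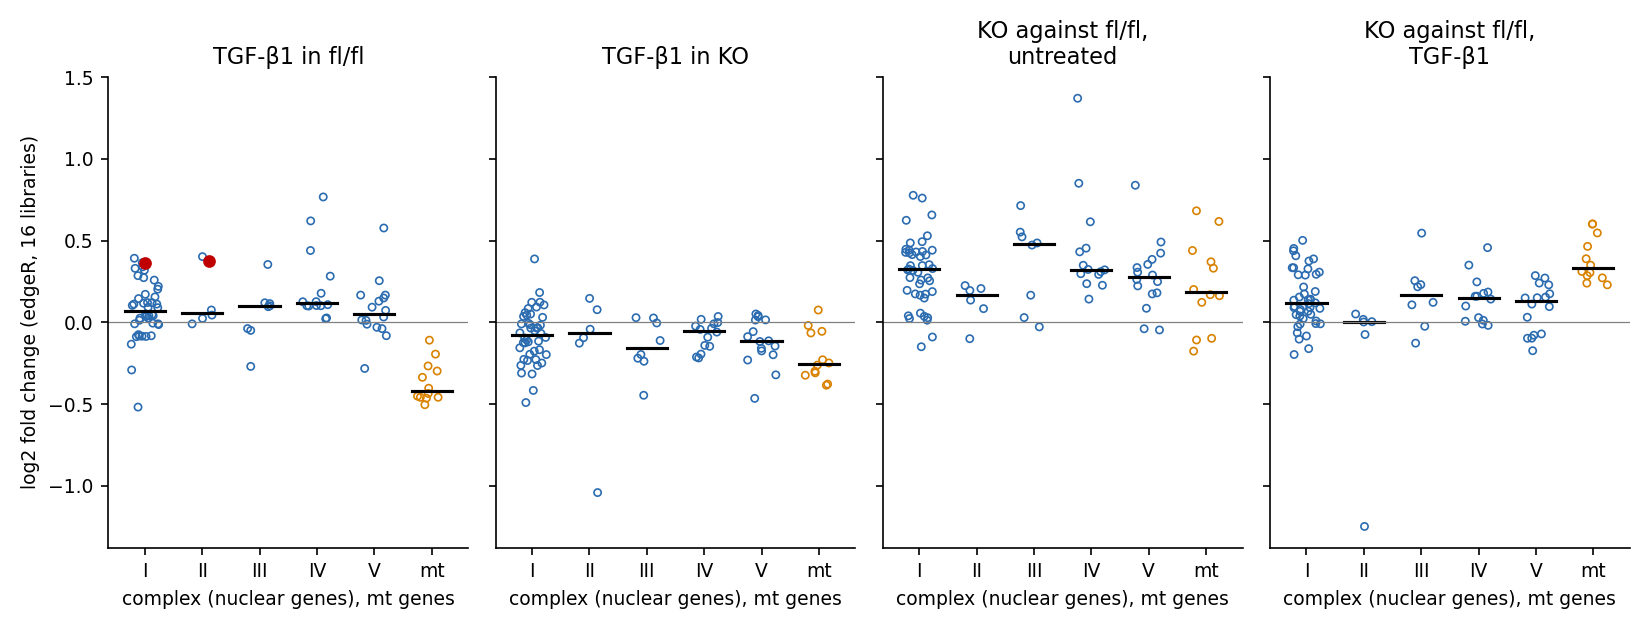
log2 fold change of each tested gene in 4 comparisons (edgeR, 16 libraries), nuclear genes by complex in blue and the 12 mitochondrial genes in orange, with black lines for medians and filled red points for genes past an adjusted p of 0.05. Only Sdhb and Atp5sl are filled, in fl/fl, and the nuclear medians lie highest, from 0.17 to 0.48, in untreated KO against fl/fl.

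The difference between the TGF-β1 responses of the genotypes was not called for any member by edgeR or DESeq2, as for any gene in the table by edgeR. With all 16 libraries no member had an unadjusted p under 0.05 (2.1% of all genes did). The nuclear median was -0.16, with 20 of 88 positive beside 48.4% of all genes, and the mitochondrial one 0.13. Without KO untreated replicate 2 they were 0.01 and 0.48, with the length trend removed -0.06 and 0.27, and with the 4 doubtful libraries left out 0.0071 and 0.33. In the last fit the unadjusted p was under 0.05 for 4 mitochondrial genes of complex I, 1 of III and 1 of IV. It was so for 1 nuclear gene of complex V and 0 of complexes I to IV, beside 4.79% of all genes. No member was called there, and that fit kept only replicates 3 and 4 of KO untreated. Leaving out the library labelled KO untreated replicate 1 gave a median of 0.08 for the mitochondrial genes and -0.19 for the 76 tested nuclear subunits.

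Genes that feed, build and regulate the chain were read from 7 further lists of 174 genes, 170 of them tested. TGF-β1 in fl/fl raised 4 and lowered 1 of these, and in KO it raised 1 and lowered 1 beside 15.5% and 5.17% of all genes called. At an unadjusted p under 0.05 there were 21 and 9, beside 27.4% and 17.7%. Without the library labelled KO untreated replicate 1, TGF-β1 raised 4 and lowered 2 in fl/fl and raised 3 and lowered 4 in KO, beside 17.7% and 14.9% of all genes. With the replicate block within genotype it raised 4 and lowered 3 in fl/fl, beside 16.8%. In KO that fit had 1 raised and 1 lowered, beside 7.6% of all genes. The genes the block added in fl/fl were Gpd2, named below, and Pnpt1, which encodes polynucleotide phosphorylase (log2 -0.56 ± 0.17, edgeR adjusted p = 0.0372). The clearest was Polg, the catalytic subunit of the polymerase that copies mitochondrial DNA. It was at 50.8, 52.0, 53.1 and 54.6 CPM in fl/fl untreated and 111.7, 113.8, 106.8 and 112.3 CPM with TGF-β1, a log2 fold change of 1.08 ± 0.14 (edgeR adjusted p = 0.000373). In KO it was at 97.0, 54.8, 58.9 and 59.9 CPM untreated and 123.5, 108.1, 113.9 and 106.2 CPM treated. The library labelled KO untreated replicate 1 was again near the treated level, and the log2 fold change was 0.74 ± 0.14 (edgeR adjusted p = 0.00967), or 0.99 ± 0.09 without it. Among regulators of mitochondrial biogenesis, 2 of 9 tested rose in fl/fl, beside 7.87% of all genes: Pprc1, a PGC-1-related coactivator, by 0.55 ± 0.15 (edgeR adjusted p = 0.0153) and Esrra, the estrogen-related receptor α, by 0.39 ± 0.11 (adjusted p = 0.0206). Pprc1 was at 30.8, 34.4, 24.96 and 29.1 CPM untreated and 43.4, 52.0, 37.3 and 42.0 CPM treated, without overlap. In KO the change of Pprc1 was 0.37 ± 0.15 (edgeR adjusted p = 0.175), and 0.54 ± 0.14 (adjusted p = 0.00909) without the library labelled KO untreated replicate 1. Nrip1, on the same list, was also called in KO in the latter fit, at 0.52 ± 0.14 (edgeR adjusted p = 0.0119).

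The assembly factors outside the named families gave 1 change of 33 tested in fl/fl, a fall of Atpaf1, a chaperone of ATP synthase, by 0.60 on the log2 scale (± 0.17, edgeR adjusted p = 0.0234), from 15.3, 14.3, 18.9 and 17.1 CPM to 9.10, 9.61, 11.5 and 13.2 CPM. In KO the lowest p of that list was that of Atpif1, the ATPase inhibitor, at -0.82 ± 0.32 (edgeR adjusted p = 0.159). KO untreated replicate 2 was at 50.5 CPM for it and the other 7 KO libraries at 12.62 to 16.86 CPM. Atpif1 was called in KO, at -0.965 ± 0.30 (edgeR adjusted p = 0.0356), when the library labelled KO untreated replicate 1 was left out. Of 76 tested genes of the mitochondrial ribosome, Mrpl38 rose in fl/fl by 0.42 ± 0.13 (edgeR adjusted p = 0.0332) and Mrps6 fell in KO by 0.91 on the log2 scale (± 0.24, adjusted p = 0.039). With the replicate block within genotype, 0 genes of that list were called in KO. No gene of the electron carriers and entry points (10 tested), the tricarboxylic acid cycle (13) or the mitochondrial carriers (9) was called with all 16 libraries in either genotype by edgeR. At an unadjusted p under 0.05 there were 2, 0 and 1 of these in fl/fl and 1, 1 and 0 in KO. Their lowest p values belonged to Gpd2, which passes electrons from glycerol 3-phosphate to ubiquinone (-0.57 ± 0.22 in fl/fl, edgeR adjusted p = 0.0977, and -0.65 ± 0.22 in KO, adjusted p = 0.107), to Sucla2 and Fh1 of the cycle (-0.24 ± 0.12 in fl/fl and -0.27 ± 0.12 in KO), and to Vdac3 and Slc25a10 of the carriers (-0.30 ± 0.14 in fl/fl and -0.24 ± 0.13 in KO). Without the library labelled KO untreated replicate 1, Gpd2 was called in both genotypes (edgeR adjusted p = 0.0467 and 0.0133) and Fh1, the fumarase, in KO (adjusted p = 0.0342). Gpd2 was also called in both with the replicate block within genotype (edgeR adjusted p = 0.025 in fl/fl and 0.0356 in KO). KO against fl/fl gave no call in any of the 7 lists by edgeR in either treatment, with 28 of 170 genes at an unadjusted p under 0.05 untreated (10.9% of all genes) and 5 with TGF-β1 (5.61%).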

How the data were processed

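Polyadenylated RNA was sequenced as 150-base pairs in 16 libraries, 4 per group, grouped by the labels' genotype and treatment; the extraction protocol in the labels speaks of fewer libraries. The mm10 genome (GRCm38.p6) and the tools Cufflinks 2.1.1, HTSeq 0.6.1 and TopHat2 2.0.9 are named, per the submitters' processing notes, with no role given; strand and multi-mapping options are not given in the sources used here. The deposited table of counts holds whole reads per gene. The authors' FPKM equalled count over gene length and library total within 0.1% in 100% of positive values.

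Counts were fitted as deposited in edgeR 4.0.16 (R 4.3.3): TMM scaling, filterByExpr on the groups (13080 genes kept), one robust quasi-likelihood model of the 16 libraries, Benjamini-Hochberg adjustment over all tested genes, threshold 0.05. Group values are mean ± SD, and fold changes are log2 ± SE. Alternatives used DESeq2 1.42.0, limma 3.58.1 on log2(FPKM + 1), other scalings and filters, a replicate block and each library left out; removing a length trend or 4 libraries together, and a block within genotype, were added after seeing the data. In fl/fl, untreated and TGF-β1 libraries of the same replicate number had deviations from the group means that correlated at 0.123 to 0.181 in 4 of 4 pairs. Those of different numbers correlated at -0.216 to 0.2, over 0.1 in 3 of 12 pairs. Whether the numbers pair the libraries is therefore not settled, and the block within genotype is given as an alternative. The scripts were tested on simulated data. No 2 libraries had identical counts. Copies were aligned with Biopython 1.88, and symbols of 5 listed genes were matched through GENCODE identifiers.

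The members and lists were chosen with earlier results of these data known. Named genes are the mitochondrial members, called members, isoform sets, the highest gene of each complex (1 such gene and 1 marker gene are not reported here) and, per further list, the gene with the lowest p in each TGF-β1 comparison and those called.

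The 7 further lists cover electron carriers and entry, other assembly factors, mitochondrial DNA transcription and RNA handling, regulators of mitochondrial biogenesis, the mitochondrial ribosome, the tricarboxylic acid cycle and mitochondrial carriers.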

Additional observations from a re-analysis of the deposited data

Results flagged for a closer look

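A single library stood apart from the other 3 of its group in 27 of 136 groups of 4 examined. The measure was the gap to its nearest neighbour as a share of the group's range, past Dixon's 95% critical value. For a single group chance gives about 1 in 20. The groups are genes and sums from the same 16 libraries and are not independent, so the count is a description only. Most of the 27 were high values of KO untreated replicate 2. The nuclear sum was 7066 CPM there and the mitochondrial sum 25780 CPM. Among nuclear genes the library was high for Cox4i1 (336 CPM), Cox8a (139.4 CPM), Cox6b1 (127.1 CPM), Cox5b (119.2 CPM), Cox7a2 (49.5 CPM) and Cox6b2 (2.67 CPM). Among mitochondrial genes it was high for mt-Cytb (5140 CPM), mt-Nd1 (3464 CPM), mt-Nd4 (2342 CPM), mt-Nd2 (1544 CPM), mt-Co2 (45.1 CPM), mt-Co3 (29.1 CPM) and mt-Atp6 (22.6 CPM). KO TGF-β1 replicate 1 was high for Cox6a1 (208.9 CPM) and Cox6b1 (100.7 CPM) and low for mt-Cytb (1781 CPM), mt-Nd4 (626.2 CPM) and mt-Nd2 (499.3 CPM).

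fl/fl untreated replicate 1 was high for mt-Co1 (11190 CPM), mt-Nd5 (3254 CPM), mt-Nd6 (608.9 CPM) and mt-Atp6 (11.1 CPM), and replicate 4 of that group was low for mt-Nd4l (0.884 CPM). The library labelled KO untreated replicate 1 was high for Pmepa1 (319.9 CPM) and Smad7 (5.87 CPM), the label checks.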

How the results depend on the processing

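The count of nuclear genes called for TGF-β1 in fl/fl, 2 with all libraries beside 15.5% of all genes, was 1 with no filter on low counts and 0 with limma on log2 FPKM. Shares of all genes called are not given for these alternatives, so their counts describe the members alone. Leaving out 1 library at a time gave 0 to 2: 0 without fl/fl untreated replicate 2, and 1 without fl/fl untreated replicate 3 or 4 or fl/fl TGF-β1 replicate 3 or 4. For TGF-β1 in KO the count was 0 in every other fit and 1, lower (Atp5s), with 4 libraries left out; the cause of these changes was not tested. The remaining counts of called members stayed at 0 under each alternative run. Same-numbered KO libraries had correlations of deviations of 0.075 to 0.239, over 0.1 in 2 of 4 pairs, and same-numbered libraries of different genotypes of -0.175 to 0.022, over 0.1 in 0 of 16, so numbers were not taken to pair these. With a replicate block over all groups, 2 nuclear genes were called for TGF-β1 in fl/fl and 0 in the other comparisons; 9 of 16 libraries correlated best with their own number. With the block within genotype, added after seeing the data, the count in fl/fl was 2, beside 16.8% of all genes. It was 3 with the length trend also removed or the library labelled KO untreated replicate 1 also left out, Cox5b being the gene added. The share of all genes called in those further fits is not given here. No other call of a member changed. Over the leave-one-out fits the nuclear median in KO against fl/fl, untreated, ran from 0.13 to 0.36, and the mitochondrial median for TGF-β1 in fl/fl from -0.56 to -0.14. With 4 libraries a group, and totals of 16865591 counts or more, the spread between libraries limits the comparisons.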
